A study of Mus musculus with 8 samples.

Results

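The GFI1 repressors and their LSD1 and CoREST cofactors were followed through the accessible chromatin around 4 genes, Gfi1, Gfi1b, Kdm1a and Rcor1, in mouse long-term haematopoietic stem cells (HSC). Overlapping peaks of all libraries were merged into 90736 regions, and the 54 regions with a midpoint inside or within 50 kb of the span of one of these genes were kept. Gfi1 had 11 such regions, Gfi1b 15, Kdm1a 13 and Rcor1 15.

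GFI1 and GFI1B are zinc-finger proteins that bind DNA and repress transcription through an N-terminal SNAG domain. The SNAG domain recruits KDM1A (LSD1), a demethylase that removes methyl groups from lysine 4 of histone H3, together with RCOR1 (CoREST), the scaffold that holds KDM1A on nucleosomes beside histone deacetylases. In blood, GFI1 is known for restraining HSC cycling and for neutrophil and lymphoid development, and GFI1B for erythroid and megakaryocyte development.

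ATAC-seq, in which a transposase inserts sequencing adapters into open DNA, was done on HSC sorted from bone marrow, with 5000 nuclei per library. The 8 libraries fall into 4 groups of 2: MUT T1 and MUT T2 from Bcl11aMUT mice, and WT T1 and WT T2 from Bcl11aWT mice. All groups carry the Vav1-cre iMOS system, in which cre acts in blood cells, and all mice were young adults (given as 2 to 3 months and as 3 months). Bcl11a encodes a zinc-finger transcription factor, and the study asks what it does in HSC. The sources used here do not say how T1 differs from T2 or in which population a transgene is active. Nothing in the labels says that replicates came from separate animals, so each p-value measures the spread between these libraries, which may be technical.

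The lists held 62232 to 74785 peaks, and relative depth, recovered as the genome background of each list, ran between 1.89 and 3.38 pileup units per position. The second MUT T1 library (2.03) and the pair of WT T2 libraries (2.45 and 1.89) were shallower than the other 5 libraries, which lay between 3.10 and 3.38. Fold enrichment is the authors' own value, the summit pileup over its local background, and a region missing from a list may still be open below the threshold of the peak caller. In bulk libraries, fewer cells with an open region and less opening per cell cannot be told apart. Of 6 HSC marker genes, 5 (all but Hoxb5) had a region at a gene end in all 8 libraries. The same held for 0 of 4 T cell markers, 1 of 4 B cell markers, 2 of 5 granulocyte and monocyte markers, 3 of 4 megakaryocyte markers, 3 of 4 erythroid markers and 3 of 4 stroma and endothelium markers. The share over all protein-coding genes was not computed, here or for the gene lists below. These counts therefore do not identify the cell type.

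Both repressor genes lie on the minus strand, and their promoters are shown because GFI1 and GFI1B bind sites with an AATC core and the start region of each gene was open in all 8 libraries. The sequences run 250 bases before to 50 bases after the annotated start and come from RefSeq (GRCm38.p6, the build also called mm10). Capitals mark AATC, or GATT where the core is read on the other strand.
Gfi1, chr5:107725756-107726055, minus strand: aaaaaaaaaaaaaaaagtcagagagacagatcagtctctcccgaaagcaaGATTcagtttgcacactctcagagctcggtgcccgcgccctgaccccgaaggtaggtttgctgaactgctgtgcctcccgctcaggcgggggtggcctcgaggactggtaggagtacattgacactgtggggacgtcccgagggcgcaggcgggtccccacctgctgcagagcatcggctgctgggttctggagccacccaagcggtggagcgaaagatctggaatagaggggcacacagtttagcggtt
Gfi1b, chr2:28621933-28622232, minus strand: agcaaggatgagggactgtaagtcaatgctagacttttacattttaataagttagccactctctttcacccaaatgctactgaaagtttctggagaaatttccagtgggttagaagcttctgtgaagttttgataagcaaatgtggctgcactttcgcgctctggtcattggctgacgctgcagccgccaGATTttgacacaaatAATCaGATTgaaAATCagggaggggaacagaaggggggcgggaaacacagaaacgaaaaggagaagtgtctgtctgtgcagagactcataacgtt

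The Gfi1b promoter held 4 AATC cores, which begin 60, 45, 40 and 33 bases before the start, and 2 of them continue as AATCA. Among 32619 RefSeq promoters of the same length, searched on both strands, 73.2% held at least 1 AATC, 10.1% held 4 or more and 37.1% held AATCA. The Gfi1b window also held GATAA, the core recognised by GATA factors (in 25.4% of promoters), and CCAAT, the core recognised by NF-Y (in 37.6%). The first Gfi1 promoter held 1 AATC, 200 bases before the start, and the promoter of a second annotated Gfi1 start held none but had CGGAAG, the core of ETS factor sites (in 17.0%). The Kdm1a promoter held 1 AATC that overlaps its CCAAT, and the Rcor1 promoter held no AATC, with 1 CGGAAG and 1 CCAAT. The RUNX core TGTGGT was in 16.6% of promoters and in none of these 5 windows. These are matches of letters and not measured binding, and GC content ran between 44.3% in the Gfi1b window and 69.3% in the Rcor1 window.

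All 4 genes were open at their starts in every library, and most of their neighbourhood did not separate the groups. Of the 54 regions, 28 (51.9%) were called in all 8 libraries and 4 (7.41%) in 1 library, against 54.6% and 11.6% of all 90736 regions. The 28 regions had a median fold enrichment of 8.51, against 7.63 for all regions called in every library. By place, 13 lay inside 1 of the 4 genes, 15 inside another gene and 26 between genes; exons and introns were not told apart. The number of regions in all 8 libraries per 100 kb was 6.41 at Gfi1, 4.44 at Gfi1b, 3.94 at Kdm1a and 5.66 at Rcor1, against a median of 3.69 over 21627 protein-coding genes.

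Of the 54 regions, MUT libraries called 42 and 37 (T1) or 47 and 42 (T2), against 43 and 44 (T1) or 39 and 37 (T2) in WT libraries. The pooled genotypes overlap. Within T1 both MUT libraries lay below both WT libraries, and within T2 both MUT libraries lay above both WT libraries. The 3 libraries with the fewest calls are the 3 shallowest. The mean was 42.0 ± 4.08 regions in MUT libraries and 40.75 ± 3.30 in WT libraries (SD, n = 4 each), and MUT minus WT was 1.25 (exact two-sided permutation test, p = 0.714, adjusted p = 1.00). T1 libraries called 41.5 ± 3.11 and T2 libraries 41.25 ± 4.35 (SD, n = 4 each), a difference of 0.25 (exact two-sided permutation test, p = 1.00, adjusted p = 1.00). No gene's count passed on its own: over all 10 tests the adjusted p of the exact permutation tests was 1.00, and 70 arrangements allow no p below 0.0286. Without the 3 shallowest libraries MUT minus WT was 0.167 (exact permutation p = 1.00). The WT libraries left are then all WT T1, so this value mixes genotype with population and does not isolate depth. With equal numbers of peaks per list MUT minus WT was −0.5 (exact permutation p = 0.8286).

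**Figure D1:**
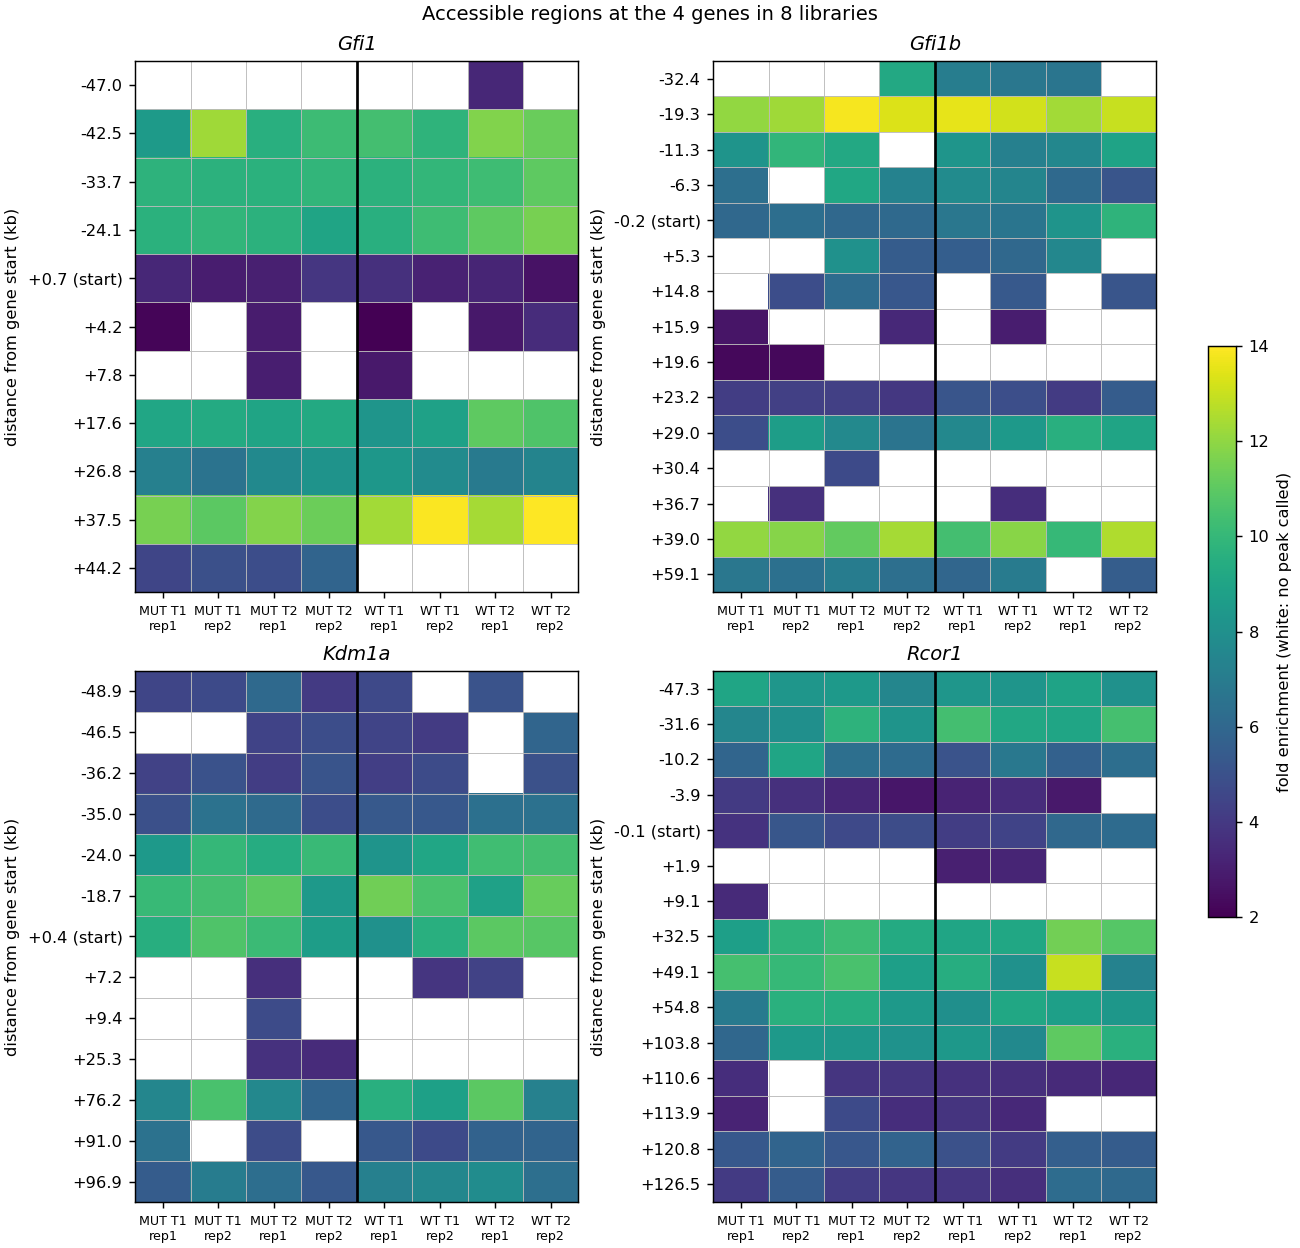
Fold enrichment of the highest peak in each of the 54 regions (rows, by distance from the gene start in kb along the direction of transcription) in the 8 libraries (columns). White cells had no peak. The start regions have a value in all 8 columns, and the Gfi1 region at +44.2 kb has one in the 4 MUT columns and in none of the 4 WT columns.

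**Figure D2:**
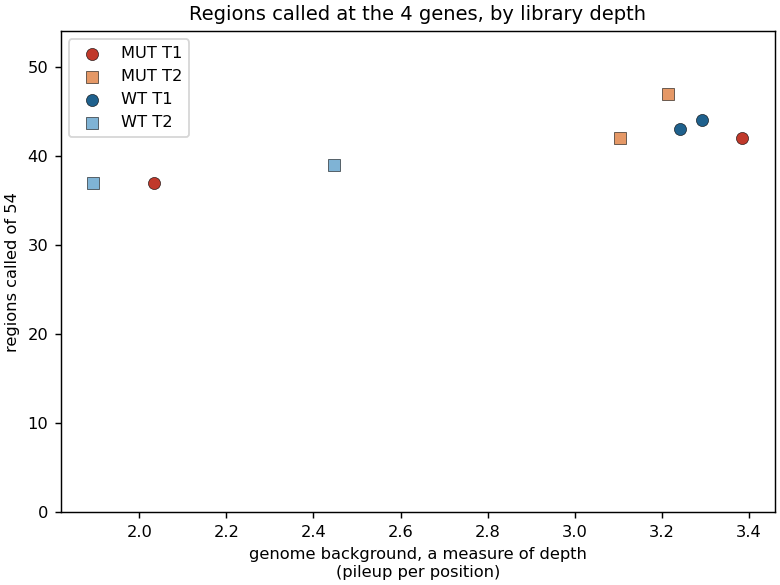
Number of the 54 regions called in each library against its genome background, a measure of depth (linear axes). The 3 libraries with the lowest background called 37, 37 and 39 regions.

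Gfi1 (gene ID 14581, chr5:107716655-107725805, 9.2 kb) encodes the repressor known for HSC quiescence, and its neighbourhood held the 1 region of the 54 called in every library of 1 genotype and none of the other. That region, chr5:107681421-107681811, is 391 bp wide, lies between genes and is 44.2 kb downstream of the Gfi1 start, 35.0 kb past the other end of the gene. Its fold enrichment was 4.49 and 4.94 in the MUT T1 libraries and 4.83 and 5.85 in the MUT T2 libraries, and no WT library called it. The 4 MUT libraries with a peak include the shallow MUT T1 replicate 2, and the WT libraries without one are 2 deep and 2 shallow. Whether depth played a part was not tested. The pileup at the summit was 24 and 14 for T1 with 21 and 23 for T2 among MUT libraries, between 6.54 and 7.41 times the genome background of each library. The 4 summits lay between 44281 and 44337 bases from the start.

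The peaks were small, with −log10 q-values of 8.62 and 6.26 for T1 with 8.42 and 11.2 for T2 among MUT libraries. A peak standing on the genome background was called from a fold of 3.26 upward in the deepest WT library and 3.80 in the shallowest, below all 4 MUT values. Those folds apply only where the local background equals the genome background. At this region the local background of the MUT libraries ran between 2.035 and 4.57, and the lowest fold that a WT library could call is not known. Weaker signal in WT libraries may have gone uncalled. Over the whole genome 201 regions, 0.222% of all, were called in every MUT and no WT library, against 1 of the 54 (1.85%). The reverse pattern was seen in 0.0606% of all regions and in 0 of the 54. For calls in 4 against 4 libraries an exact permutation test cannot go below 0.0286, which no adjustment over 90736 regions lets pass, so the count is a description. Among the 201 regions, it ranked 77th by its lowest fold, 4.49, where the median lowest fold was 4.14. Chromosome 5 held 13 of the 201 (6.47%), close to its 6.36% of all regions, and the next of them was 2298.1 kb from Gfi1.

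When each list was reduced to its 62232 strongest peaks, the region kept its peak in MUT T1 replicate 2 and MUT T2 replicate 2 only. It then no longer met the rule, since the lowest −log10 q-value kept, 8.81 in MUT T1 replicate 1 and 9.81 in MUT T2 replicate 1, lay above its own. The pattern of 4 MUT and 0 WT libraries held with a −log10 q-value of at least 5 and with regions built from summit windows.

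**Figure D3:**
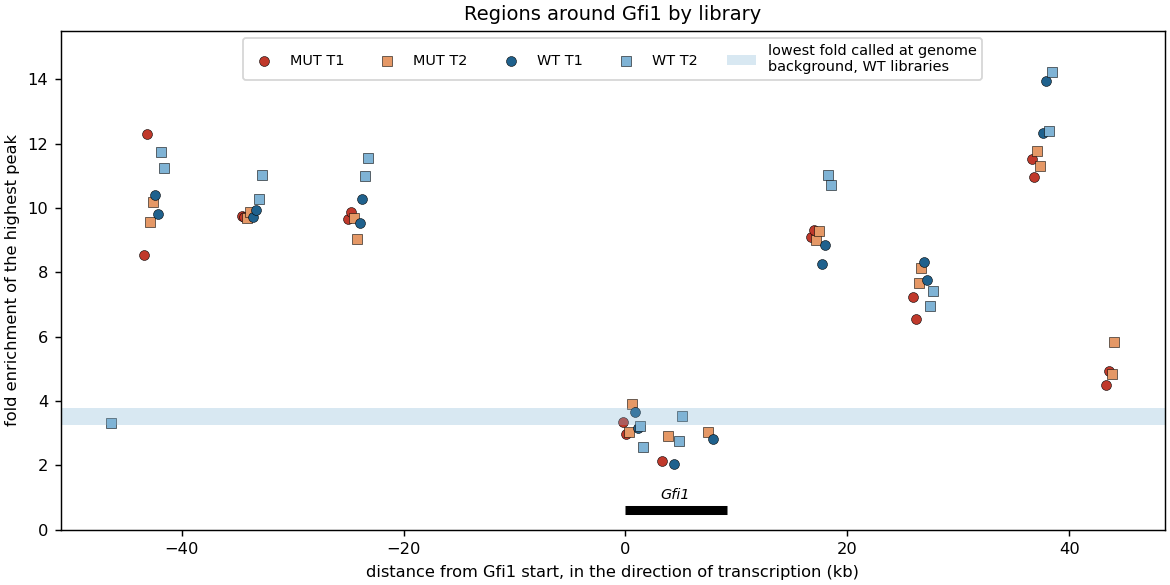
Fold enrichment in each library (points, set slightly apart sideways) against distance from the Gfi1 start along transcription, with the gene as a black bar. The band spans the lowest folds called on the genome background in the 4 WT libraries, 3.26 to 3.80. At +44.2 kb only MUT points are present, at 4.49 to 5.85, above the band. The band applies only where the local background equals the genome background. At this region the local background of the MUT libraries ran between 2.035 and 4.57.

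The start of Gfi1 lay in a wide region, chr5:107723335-107726949 (3615 bp), that covers both annotated starts. Its fold enrichment was 3.35 and 2.98 for T1 with 3.04 and 3.90 for T2 among MUT libraries, against 3.66 and 3.17 for T1 with 3.23 and 2.57 for T2 among WT libraries. The groups overlap. These folds were among the lowest of regions called in every library (median percentile 1.21), while the summit pileup was in the middle (median percentile 50.6). The local background there was 10.3 to 22.2, against library medians of 3.82 to 6.14, and each library split the region into 1 to 3 peaks. The pileup itself was 14.8 to 25.9 times the genome background.

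The strongest Gfi1 region was 37.5 kb downstream of the start, between genes. Its fold was 11.5 and 10.97 for T1 with 11.8 and 11.3 for T2 among MUT libraries, against 12.3 and 13.9 for T1 with 12.4 and 14.2 for T2 among WT libraries. In these folds all 4 MUT values lay below all 4 WT values, by a small margin. After quantile normalization the genotypes overlapped: WT T2 replicate 1, at 3.52 on the log2 scale, lay below MUT T1 replicate 1, at 3.66. The difference of MUT minus WT was then −0.12 on the log2 scale (SE 0.09, limma adjusted p = 0.888), within the spread between libraries. Upstream, inside Evi5, the neighbouring gene, the regions at −42.5 kb (8.54 to 12.3, median 10.3) and −33.7 kb (9.68 to 11.04, median 9.82) came next. A region at −47.0 kb was called in WT T2 replicate 1 only, at a fold of 3.31. Inside the gene, the region at +4.2 kb was called in 5 libraries and that at +7.8 kb in 2, at folds of 2.04 to 3.53.

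Gfi1b (gene ID 14582, chr2:28609450-28621982, 12.5 kb) encodes the erythroid and megakaryocyte repressor, and it had the fewest regions called everywhere, 5 of 15. The start region, chr2:28621446-28622943, had a fold of 6.08 and 6.35 for T1 with 6.04 and 6.11 for T2 among MUT libraries, against 6.75 and 6.66 for T1 with 8.23 and 9.82 for T2 among WT libraries. All MUT libraries lay below all WT libraries, and the WT T2 libraries stood highest. With limma on the quantile-normalized log2 values, MUT minus WT was −0.29 (SE 0.10, 95% interval −0.50 to −0.07, unadjusted p = 0.0128, adjusted p = 0.672). In the T2 population alone, MUT T2 minus WT T2 was −0.44 (SE 0.14, limma adjusted p = 0.619), and in T1, MUT T1 minus WT T1 was −0.13 (SE 0.14, limma adjusted p = 0.937). The interaction of genotype and population was 0.31 (SE 0.20, limma adjusted p = 0.761). None of these passed the threshold of 0.05, and the WT T2 libraries that stood highest are 2 of the 3 shallowest. With depth as a term, MUT minus WT was −0.28 (SE 0.10, limma adjusted p = 0.539). Both WT T2 libraries are shallow, so a depth term cannot fully separate depth from that group. Within groups, depth differed most in MUT T1 (3.38 and 2.03). The same limit holds for the other fits with a depth term below.

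At Gfi1b, 9 of 15 regions were called in 2 to 7 libraries, more than at the other genes. The share of all regions called in 2 to 7 libraries was not computed. In all 8 libraries, 33.3% of the Gfi1b regions were called, against 54.6% of all regions. The region at +5.3 kb, inside the gene (chr2:28616500-28616821), had no peak in either MUT T1 library. Both MUT T2 libraries called it, at 8.05 and 5.49, as did the WT T1 libraries, at 5.59 and 6.03, and WT T2 replicate 1, at 7.58. It was therefore lost in MUT T1 against both WT T1 and MUT T2. A region at +19.6 kb (chr2:28602196-28602590) was called in MUT T1 only, at folds of 2.25 and 2.28. At −32.4 kb, inside Tsc1, MUT T1 had no peak, against 7.07 and 6.76 in WT T1; the other calls were 9.26 in MUT T2 replicate 2 and 6.67 in WT T2 replicate 1.

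The strongest Gfi1b regions sat at the starts of neighbours. The region at −19.3 kb covers the start of Tsc1, which encodes a brake on mTOR signalling, with folds between 12.04 and 13.8 (median 13.1). Its interaction of genotype and population was −0.39 on the log2 scale (SE 0.15, limma unadjusted p = 0.0258, adjusted p = 0.679). With depth as a term that interaction was −0.29 (SE 0.21, limma adjusted p = 0.945). The region at +39.0 kb covers the start of Gtf3c5, which encodes a subunit of RNA polymerase III factor TFIIIC, with folds between 10.04 and 12.6 (median 11.8). At +29.0 kb, between genes, the fold was 4.84 and 8.68 for T1 with 7.66 and 6.63 for T2 among MUT libraries, against 7.58 and 8.44 for T1 with 9.58 and 9.01 for T2 among WT libraries. The MUT and WT values overlap there (MUT minus WT −0.29 on the log2 scale, SE 0.14, limma adjusted p = 0.769). A region at +30.4 kb was called in MUT T2 replicate 1 only, at 4.68.

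**Figure D4:**
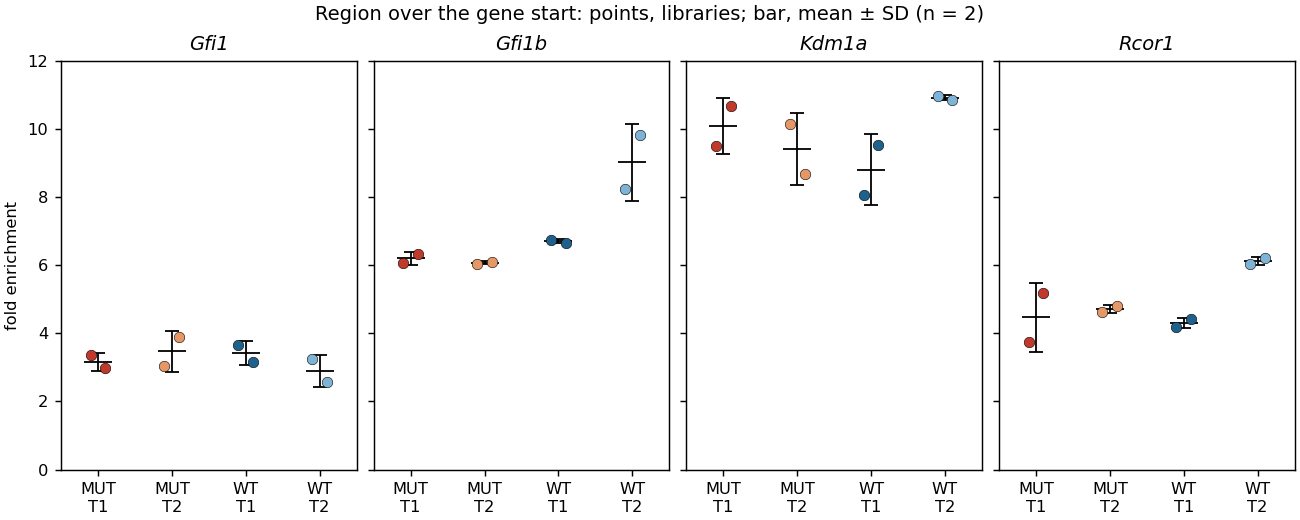
Fold enrichment of the region over each gene start by group; points are libraries and bars are mean ± SD (n = 2 per group). Gfi1b MUT libraries lie at 6.04 to 6.35, below the WT libraries at 6.66 to 9.82, while the groups overlap at Gfi1 and Kdm1a.

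Kdm1a (gene ID 99982, chr4:136550533-136602787, 52.3 kb) encodes the demethylase, and its start was the most strongly enriched of the 4. The start region, chr4:136601518-136603113, had a fold of 9.51 and 10.7 for T1 with 10.2 and 8.68 for T2 among MUT libraries, against 8.07 and 9.55 for T1 with 10.97 and 10.9 for T2 among WT libraries. MUT and WT libraries overlap, with WT T1 replicate 1 lowest and the WT T2 libraries highest. MUT minus WT was 0.06 on the log2 scale (SE 0.09, 95% interval −0.13 to 0.25, limma adjusted p = 0.968). Its summit pileup stood at a median percentile of 94.3 among regions called in every library, against 86.0 for the Rcor1 start and 70.6 for the Gfi1b start.

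The other strong Kdm1a regions were at −18.7 kb, between genes (8.45 to 11.4, median 10.5), and at −24.0 kb inside Lactbl1 (8.23 to 10.4, median 9.72). A region at +25.3 kb inside the gene (chr4:136577104-136577687) was called in MUT T2 only, at 3.71 and 3.48. The region at −46.5 kb, inside Ephb2, had no peak in MUT T1. Both MUT T2 libraries called it, at 4.40 and 4.82, as did the WT T1 libraries, at 4.45 and 4.07, and WT T2 replicate 2, at 5.92. A region at +9.4 kb was called in MUT T2 replicate 1 only, at 4.75.

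Between populations, the Kdm1a region at +76.2 kb, inside Luzp1, had the smallest p of the 28. Its fold was 7.53 and 10.5 for T1 with 7.60 and 5.85 for T2 among MUT libraries, against 9.55 and 8.83 for T1 with 10.96 and 7.25 for T2 among WT libraries. The T1 and T2 libraries overlap. T1 minus T2 was 0.32 on the log2 scale (SE 0.14, limma unadjusted p = 0.0385, adjusted p = 0.906), and MUT T1 minus MUT T2 was 0.44 (SE 0.20, limma adjusted p = 0.999).

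Rcor1 (gene ID 217864, chr12:111039367-111115902, 76.5 kb, plus strand) encodes the scaffold CoREST and had the most regions called in every library, 10 of 15. The start region, chr12:111038375-111040145, had a fold of 3.75 and 5.19 for T1 with 4.64 and 4.81 for T2 among MUT libraries, against 4.20 and 4.41 for T1 with 6.03 and 6.22 for T2 among WT libraries. The WT T2 libraries, both shallow, were highest, MUT T2 lay above WT T1, and MUT T1 spanned both. WT T1 minus WT T2 was −0.36 on the log2 scale (SE 0.15, limma adjusted p = 0.581), and −0.14 with depth as a term (SE 0.19, limma adjusted p = 0.969). MUT minus WT was −0.13 (SE 0.11, limma adjusted p = 0.911), and T1 minus T2 was −0.23 (SE 0.11, limma adjusted p = 0.906).

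Inside Rcor1, the regions at +49.1 kb (7.34 to 13.0, median 9.76) and +32.5 kb (8.75 to 11.5, median 9.59) were the strongest. A region 1.9 kb past the start (chr12:111041111-111041486) was called in WT T1 only, at 3.06 and 3.26, and one at +9.1 kb in MUT T1 replicate 1 only, at 3.45. At −31.6 kb the fold was 7.51 and 7.98 in MUT T1, against 10.4 and 9.18 in WT T1. These did not overlap, and MUT T1 minus WT T1 was −0.34 on the log2 scale (SE 0.13, limma adjusted p = 0.763).

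At the far end of the Rcor1 window, 126.5 kb past the start, the region chr12:111164401-111167234 covers the start of Traf3, which encodes an adaptor of TNF receptor signalling. Its fold was 4.04 and 5.50 for T1 with 4.16 and 3.88 for T2 among MUT libraries, against 3.90 and 3.60 for T1 with 6.24 and 6.12 for T2 among WT libraries. The WT T2 libraries, both shallow, stood above the other 6. MUT T2 minus WT T2 was −0.51 on the log2 scale (SE 0.15, limma adjusted p = 0.619). WT T1 minus WT T2 was −0.56 (SE 0.15, limma adjusted p = 0.515), and the interaction was 0.80 (SE 0.21, limma unadjusted p = 0.00246, adjusted p = 0.679). With depth as a term in the fit, the interaction was 0.54 (SE 0.29, limma unadjusted p = 0.0849, adjusted p = 0.929). In that fit no contrast of single groups had an unadjusted limma p under 0.05 at this region. Since both WT T2 libraries are shallow, the fit cannot fully separate depth from that group. At +113.9 kb, MUT T1 replicate 1 had a fold of 3.20 and the MUT T2 libraries 4.69 and 3.59, against 3.78 and 3.38 in the WT T1 libraries and no peak in WT T2.

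Counted over the 54 regions, gains and losses were small counts, with shares above those of all regions in some comparisons and below in others. In MUT T1 against WT T1, 2 regions (3.70%) were gained and 4 (7.41%) lost, against 1.26% and 2.13% of all regions. The gains were Gfi1 +44.2 kb and Gfi1b +19.6 kb, and the losses were Gfi1b +5.3 kb, Gfi1b −32.4 kb, Kdm1a −46.5 kb and Rcor1 +1.9 kb. In MUT T2 against WT T2, 3 regions (5.56%) were gained and 0 lost, against 3.95% and 0.457% of all regions. These were Gfi1 +44.2 kb, Kdm1a +25.3 kb and Rcor1 +113.9 kb. The WT T2 libraries are the shallower of this pair. In the T1 comparison, MUT T1 replicate 2 is shallower than both WT T1 libraries. With equal numbers of peaks from every list, MUT T2 against WT T2 had 0 gained and 1 lost, and MUT T1 against WT T1 had 0 gained and 4 lost.

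In MUT T1 against MUT T2, 1 region (1.85%) was gained and 3 (5.56%) were lost, against 0.641% and 1.74% of all regions. The gain was Gfi1b +19.6 kb, and the losses were Gfi1b +5.3 kb, Kdm1a +25.3 kb and Kdm1a −46.5 kb. In WT T1 against WT T2, 2 regions (3.70%), Rcor1 +1.9 kb and Rcor1 +113.9 kb, were gained and 0 lost, against 3.90% and 0.632% of all regions. No region of the 54 was called in all T1 and no T2 library or the reverse, which 0.0507% and 0.0265% of all regions were. With equal numbers of peaks, MUT T1 against MUT T2 had 0 gained and 2 lost, and WT T1 against WT T2 had 1 gained and 1 lost. The comparisons share groups and are not independent of each other. The shallow libraries, MUT T1 replicate 2 and both of WT T2, enter these comparisons too.

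On the level of fold enrichment, limma tested 49577 regions called in every library, 28 of them at the 4 genes. For MUT minus WT, 0 of the 28 and 5 of all regions (0.0101%) passed an adjusted p of 0.05, and 1 of the 28 had an unadjusted p under 0.05, against 6.56% of all. For T1 minus T2, for the 4 comparisons of single groups and for the interaction, 0 of the 28 and 0% of all regions passed, with 1 to 3 of the 28 at an unadjusted p under 0.05, against 4.28% to 8.26% of all regions. The median log2 difference of the 28 regions was −0.01 for MUT minus WT and 0.02 for T1 minus T2, against −0.0027 and −0.0017 for all regions. For MUT minus WT, 13 of the 28 lay above 0 and 15 below.

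**Figure D5:**
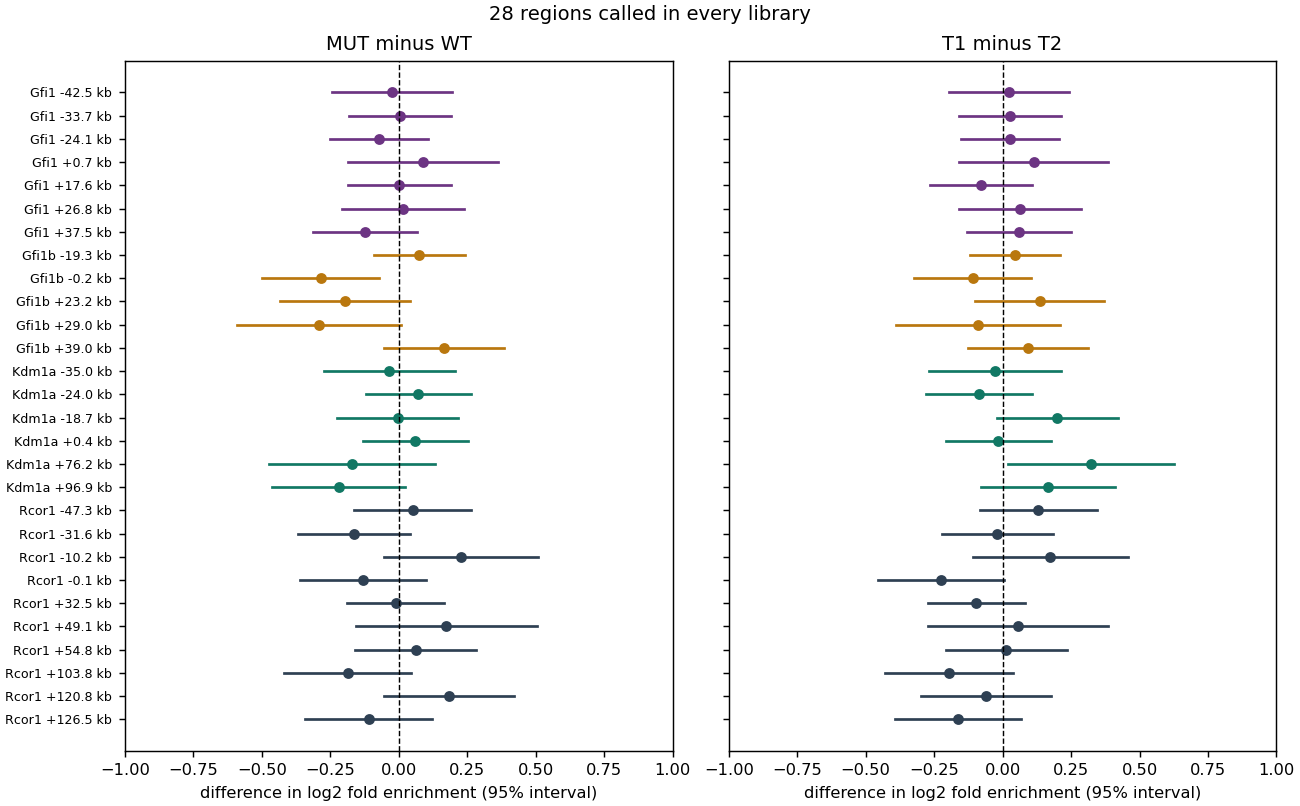
Difference in quantile-normalized log2 fold enrichment for the 28 regions called in every library, MUT minus WT (left) and T1 minus T2 (right), with 95% intervals from limma. The interval of the Gfi1b start, −0.50 to −0.07, is the 1 on the left that leaves out 0, and none passed after adjustment.

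Other genes of the pathway were read in the same way, from lists chosen with earlier results of these data known. Among 12 genes for partners or relatives of LSD1 and CoREST, 10 had a region at a gene end in all 8 libraries. The 12 include Hdac1, Hdac2, Rcor2 and Phf21a, and the exceptions were Gse1 and Zfp217. Of their 199 regions, 129 (64.8%) were called in all 8, against 54.6% of all regions. In either direction, 0 separated all MUT from all WT libraries, against 0.222% (MUT only) and 0.0606% (WT only) of all regions. In MUT T1 against WT T1, 1 of the 199 (0.503%) was gained and 4 (2.01%) lost, against 1.26% and 2.13% of all regions. In MUT T2 against WT T2, 7 (3.52%) were gained and 1 (0.503%) lost, against 3.95% and 0.457% of all regions.

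All 7 SNAG-domain relatives, such as Snai1 and Insm1, had a region at a gene end in all 8 libraries. Of their 64 regions, 35 (54.7%) were called in all 8, close to the 54.6% of all regions. One region near Snai1, chr2:167578454-167578911, was called in every MUT but no WT library, at folds of 3.52 to 6.69, which is 1 of 64 (1.56%), against 0.222% of all regions. Of 24 genes that other studies name as targets of GFI1 or GFI1B, 17 had a region at a gene end in all 8 libraries, and Egr2, Elane, Bcl2l1 and Gata3 had none there in any library. Of their 358 regions, 1 was called in every MUT but no WT library, near Spi1, which encodes the myeloid factor PU.1 (chr2:91061012-91061483, folds of 4.13 to 6.05). That is 0.279% of the list's regions, close to the 0.222% of all regions. In MUT T2 against WT T2, 16 of the 358 (4.47%) were gained and 0 lost, against 3.95% and 0.457% of all regions. In MUT T1 against WT T1, 6 (1.68%) were gained and 8 (2.23%) lost, against 1.26% and 2.13%. In the limma test, 0 regions of these 3 lists passed for MUT minus WT, with 6 of 129, 2 of 35 and 12 of 196 at an unadjusted p under 0.05 (4.65%, 5.71% and 6.12%), against 6.56% of all regions.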

How the data were processed

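The authors deposited 1 peak list for each of the 8 libraries, called per sample. Bowtie2, SAMtools, MACS2 and mm10 are named per the submitters' processing notes, without versions, and the sources do not say whether reads were shifted for transposase cutting. Each deposited peak has a fold enrichment (a ratio) and, as −log10, a p-value and a q-value; the lowest −log10 q-value in a list was 3.00 to 3.04. The genes and the lists of other genes were chosen with earlier results of these data known.

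Peaks were merged where they overlapped by 1 bp, over the 8 lists, and a region counts as called in a library with a peak in it. Gained means called in every library of 1 group and none of the other, and lost the opposite. The depth of each library was recovered by solving the deposited ratio (pileup + 1 over background + 1) and −log10 p-value for a summit pileup and a local background. Pileups were whole within 0.001 for at least 99.99% of peaks, and the lowest background was taken as depth. This gives relative depth and no read totals, and counting error limits small peaks.

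Gene spans and promoters came from RefSeq tables (GRCm38.p6), and all 4 genes matched. Counts per library were compared by exact permutation tests (SciPy 1.17.1), adjusted over 10 tests by Benjamini-Hochberg. Log2 fold enrichment of regions called in all 8 libraries was quantile-normalized and fitted with limma 3.58.1 in R 4.3.3 on 4 group means, with 7 contrasts adjusted over 49577 regions; the fit was tested on simulated data. Tables and figures were made with Python 3.11.15, pandas 2.3.3, numpy 2.4.6 and matplotlib 3.10.9.

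Regions named are those over a gene end, the 3 strongest per gene called in all 8 libraries, every region gained or lost, the smallest p per contrast, and regions called in 1 library. Others were added after their values were seen: Gfi1 +4.2 and +7.8 kb, and 1 region each near Snai1 and Spi1. The sources do not say whether replicate numbers pair the libraries, and the main fit used no pairing. Deviations from the group means correlated weakly between same-numbered libraries, between 0.0150 and 0.0741. The highest values were for MUT T1 with MUT T2 (0.0741) and WT T1 with WT T2 (0.0563). Such small values cannot settle whether libraries are paired. Alternatives were equal numbers of peaks, a −log10 q-value of at least 5, windows of 100 bp on each side of summits, a 10 kb flank, other normalizations, a replicate block, a depth term and leaving out each library. The sequence of the distal regions was not analysed here.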

Additional observations from a re-analysis of the deposited data

Results flagged for a closer look

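Of 20 sets of 4 libraries whose counts of called regions were examined, 2 held 1 library far from the others. The rule has a nominal rate of about 1 in 20, which was not measured for small whole counts with ties. It always flags 3 equal counts beside a different one, as in both sets here, and the sets share libraries. Among the 4 T1 libraries, WT T1 replicate 2 called 13 of the 15 Gfi1b regions, while the other T1 libraries each called 10. Among the same libraries, MUT T1 replicate 2, 1 of the 3 shallowest, called 11 of the 15 Rcor1 regions, while the other T1 libraries each called 14.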

How the results depend on the processing

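The count of regions called in all 8 libraries was 28, kept within 1.5 times by every alternative except a 10 kb flank, where it was 8. A 10 kb flank also gave 3 gained or lost regions in MUT T1 against WT T1 (6 with 50 kb), 1 in MUT T2 against WT T2 (3), 1 in WT T1 against WT T2 (2) and 0 for all MUT against all WT (1), with a T1 minus T2 difference in regions per library of −0.25. Equal numbers of peaks gave 1 for MUT T2 against WT T2, a loss where 3 gains had stood, 2 for MUT T1 against MUT T2 (4), both losses, and 0 for all MUT against all WT. They left 4 losses and no gain in MUT T1 against WT T1 and 1 gain with 1 loss in WT T1 against WT T2, and turned the differences in regions per library to −0.5 for MUT minus WT (1.25) and −0.5 for T1 minus T2 (0.25). A −log10 q-value of at least 5 gave 2 for MUT T1 against MUT T2 and 4 for WT T1 against WT T2, and summit windows 4 for the last. Without the 3 shallowest libraries, chosen after seeing the data, T1 minus T2 was −1.5, with only MUT libraries left in T2. The cause of these changes was not tested, beyond the narrower window of the 10 kb flank.

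Leaving out each library in turn gave 28 to 30 regions in all remaining libraries, 6 to 10 gained or lost for MUT T1 against WT T1, 3 to 8 for MUT T2 against WT T2, 4 to 8 for MUT T1 against MUT T2, 2 to 6 for WT T1 against WT T2 and 1 for all MUT against all WT. Counts moved by over 1.5 times without MUT T1 replicate 1 (10 for MUT T1 against WT T1, 8 for MUT T1 against MUT T2), MUT T2 replicate 1 (7 for MUT T2 against WT T2), MUT T2 replicate 2 (6 for MUT T2 against WT T2, 8 for MUT T1 against MUT T2), WT T1 replicate 1 (5 for WT T1 against WT T2), WT T2 replicate 1 (6 for MUT T2 against WT T2, 5 for WT T1 against WT T2) and WT T2 replicate 2 (8 and 6 for the same). The differences in regions per library ran between −0.417 and 2.92 for MUT minus WT and between −1.17 and 2.17 for T1 minus T2; the sign turned without MUT T2 replicate 1 in the first, and without any 1 of the 4 WT libraries in the second. In 84 limma fits under 12 alternatives, 0 of the regions at the 4 genes passed, with 0 to 5 at an unadjusted p under 0.05 and smallest adjusted p-values between 0.252 and 1.00. The fit with the replicate block also called 0 of the 28, and 0 of all regions for MUT minus WT against 5 without it. Over all regions, 6 passed for MUT minus WT when libraries were centred on their medians, and 0 with a depth term. Depth limits what a missing peak means: in the shallowest library no peak on the genome background was called below a fold of 3.80.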
